A study of Mus musculus with 40 samples.

Results

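The amyloid precursor protein APP is cut by a small set of proteases, and the genes described here are 10 of that machinery, taken by name from the 43346 genes of the deposited cortical RNA-seq counts of *Trem2* H157Y knock-in mice. They are the α-secretases *Adam10* and *Adam17*, the β-secretase *Bace1* and its paralog *Bace2*, the γ-secretase subunits *Psen2*, *Ncstn*, *Aph1a* and *Psenen*, and the 2 APP-like genes *Aplp1* and *Aplp2*. All 10 were expressed above the filter on low counts, which kept 21253 genes. The libraries come from 40 mice in 4 groups of 10, each with 5 females and 5 males. Non-amyloid WT and non-amyloid Hom mice were 6 months old, and carried either the wild-type *Trem2* alleles or *Trem2* H157Y on both alleles. Amyloid WT and amyloid Hom mice carried the same *Trem2* genotypes together with the hemizygous 5xFAD transgenes and were 8.5 months old. The 5xFAD transgenes include mutant human APP under the *Thy1* promoter, which is active in neurons, so the transgene is not under the control of the *App* promoter. The knock-in was made by CRISPR/Cas9, and because age and transgene change together between the cohorts, their effects cannot be told apart.

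APP can be processed along competing routes. An α-secretase cuts within the amyloid-β sequence and releases a soluble ectodomain, while the β-secretase cuts at its start and leaves a membrane stub from which γ-secretase releases amyloid-β. γ-Secretase is a complex of a presenilin, nicastrin, an APH-1 protein and PEN-2, and cuts many other membrane stubs. *Adam10* and *Adam17* also shed TREM2 itself, and the knock-in changes an amino acid at the position where TREM2 is cut, which is why their transcripts bear on these mice. APLP1 and APLP2 are paralogs of APP that are cut by the same classes of enzyme but hold no amyloid-β sequence.

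The coding stretches that carry the catalytic residues show how the paired members relate. They were read from the longest coding transcript of each gene in GENCODE vM21 (mm10), 5′ to 3′ on the coding strand. In the α-secretases the capitals mark the codons of the catalytic glutamate and of the histidines that bind zinc. The *Adam10* stretch joins exons 9 and 10 and lies within chr9:70754287-70761594 on the plus strand with the intron left out, and the *Adam17* stretch lies in exon 12 at chr12:21336723-21336773 on the minus strand.
Adam10: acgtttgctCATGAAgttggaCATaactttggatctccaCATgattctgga
Adam17: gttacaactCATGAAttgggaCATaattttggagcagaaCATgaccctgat
The capitals are the same codons at the same spacing in both genes, although the predicted proteins of 749 and 846 residues are identical at only 225 of 699 aligned positions (32.2%).

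In the β-secretases the capitals mark the codons of the 2 active-site aspartates, codons 93 and 289 of *Bace1* (exons 2 and 6, chr9:45852894-45852923 and chr9:45858415-45858444, plus strand) and codons 106 and 299 of *Bace2* (exons 2 and 6, chr16:97399640-97399669 and chr16:97415094-97415123, plus strand).
Bace1 first aspartate: atcctggtgGACacgggcagtagtaacttt
Bace2 first aspartate: attcttgtgGACactggaagcagtaacttc
Bace1 second aspartate: agcattgtgGACagtgggaccaccaacctt
Bace2 second aspartate: gccattgtgGACagtggcaccacgctcctg
Both aspartates use the same codon in both genes, and the proteins are identical at 245 of 489 aligned positions (50.1%). In *Psen2*, the catalytic subunit of γ-secretase among these genes, the capitals mark the codon of an active-site aspartate, codon 366 in exon 10 (chr1:180228927-180228956, minus strand). In *Aplp1* and *Aplp2* they mark the codons for the asparagine and proline and for the tyrosine of the cytoplasmic docking motif shared with APP, in exon 17 of each gene (chr7:30435308-30435337 and chr9:31150889-31150918, minus strand).
Psen2: gtgaagctcggcctgggaGACttcatcttc
Aplp1: ggctatgagAACCCCaccTACcgcttcctg
Aplp2: ggttatgaaAACCCAaccTACaaatacctg
The APP-like proteins are identical at 295 of 635 aligned positions (46.5%).

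Total counts per library ranged from 62272158 to 105903846 in 39 libraries. The remaining library, amyloid Hom replicate 19 from a female, had 41646271 counts and stood apart from its group, with a median correlation of 0.952 to its group where the other libraries had 0.982 to 0.989. It also placed 0.299% of its counts on 139 genes that lie mostly under exons of a more abundant gene on the opposite strand, against 0.0141% to 0.0186% elsewhere. Results that rest on it are given with and without it. Each library held between 152 counts (*Bace2*) and 96896 counts (*Aplp1*) of these genes, and the spread between mice was larger than the counting error for all 10. The summed level of 8 neuronal markers had a median of 7958 to 8375 CPM (counts scaled to a library's total) in the 4 groups. None of the 8 was at 0 in every library. These are markers of neurons, and whether the tissue is cortex and not another brain region was not tested.

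The 10 genes differed in level by more than 2 orders of magnitude. To compare genes with each other, CPM was divided by the deposited gene length in kb. Per kb, *Aplp1* was the most abundant, with 325 ± 62.5 CPM per kb (SD, n = 10) in non-amyloid WT mice, and *Aplp2* followed with 189 ± 5.28 CPM per kb. The smallest γ-secretase subunit gene, *Psenen* (PEN-2), came next at 42.2 ± 5.02 CPM per kb. *Adam10* (22.8 ± 2.96), *Bace1* (17.8 ± 0.782) and *Ncstn* (16.2 ± 1.01, nicastrin) formed a middle tier in which each gene's range overlapped that of the next. *Aph1a* stood alone at 7.97 ± 0.411 CPM per kb. *Adam17* (2.77 ± 0.231) and *Psen2* (2.53 ± 0.442) overlapped, and *Bace2* was lowest at 1.18 ± 0.209 CPM per kb. With these lengths the order was the same in all 4 groups, and which neighbours overlapped changed in a few places. *Adam10* and *Bace1* did not overlap in non-amyloid Hom or amyloid WT mice, *Aplp1* and *Aplp2* overlapped in amyloid WT mice, *Psen2* and *Bace2* overlapped there too, and *Adam17* and *Psen2* did not overlap in amyloid Hom mice.

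**Figure D1:**
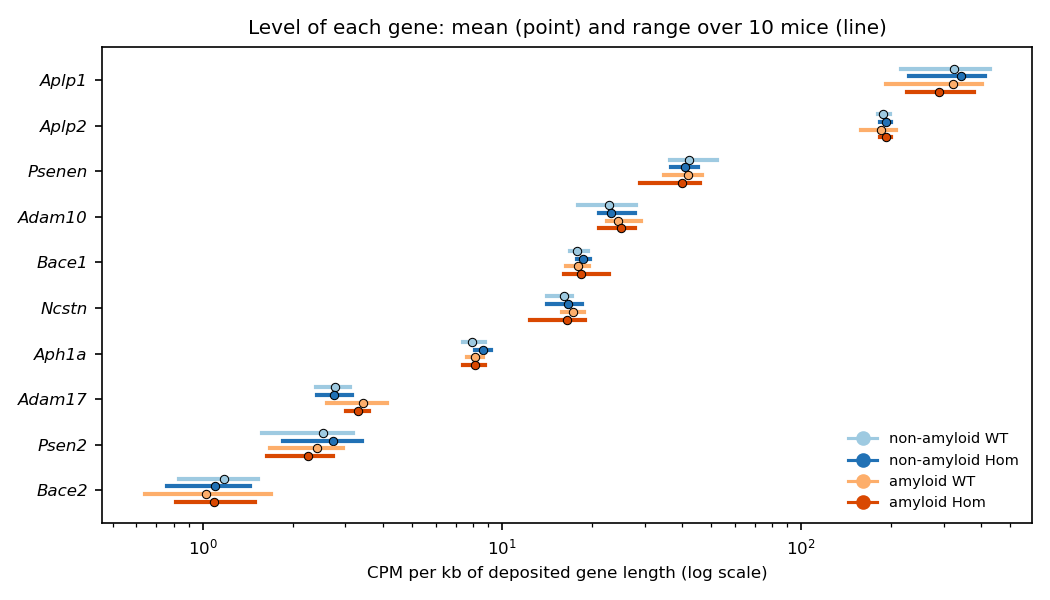
Level of each of the 10 genes as CPM per kb of deposited gene length, on a log axis, with the mean of 10 mice as a point and the range as a line in each of the 4 groups. *Aplp1* and *Aplp2* sit above 150, *Bace2* near 1, and the 4 groups of each gene lie close together beside the distances between genes.

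Within each pair of related genes the same member had the higher level per kb in every mouse. The ratio of *Adam10* to *Adam17* per kb had a median of 8.24 in non-amyloid WT and 8.37 in non-amyloid Hom mice, and of 7.11 in amyloid WT and 7.48 in amyloid Hom mice. *Bace1* exceeded *Bace2* per kb by a median of 15.5 to 18.4 times in the 4 groups. The closest pair was *Aplp1* and *Aplp2*, with a ratio per kb from 1.11 to 2.53 over the 40 mice. The deposited lengths of *Bace2*, *Aph1a*, *Psenen*, *Aplp1* and *Aplp2* are shorter than the exonic lengths of GENCODE vM21, and the level per kb of these genes depends on which is used. With the vM21 lengths *Psenen* had a mean of 21.5 CPM per kb in non-amyloid WT mice, below *Adam10*, and came after it in all 4 groups. The other 8 genes held their places. With those lengths *Bace1* exceeded *Bace2* per kb by a median of 32.8 to 38.8 times, and the ratio of *Aplp1* to *Aplp2* ran from 1.39 to 3.19.

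The first comparison asked whether these transcripts differ between Hom and WT mice in the presence of amyloid. In the amyloid cohort none of the 10 genes was called by edgeR's quasi-likelihood test (a gene is called here when its p, adjusted by Benjamini-Hochberg over all genes, is under 0.05 and its log2 fold change exceeds 0.25 in either direction). None had an unadjusted p under 0.05, and DESeq2 and limma-voom also called 0 and found 0 at that unadjusted p. Over all genes tested, 0.0753% were called and 9.67% had an unadjusted p under 0.05. The log2 fold changes of the 10 genes ran from -0.16 (*Aplp1*) to 0.089 (*Bace2*) with a median of -0.03, where the median of all genes was 0.00142. In the non-amyloid cohort edgeR, DESeq2 and limma-voom again called 0 of 10 genes, against 0.0329% of all genes called by edgeR. There *Bace1* and *Aph1a* were the 2 genes with an unadjusted p under 0.05 in each of the 3 tools, and 4.61% of all genes had one in edgeR.

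**Figure D2:**
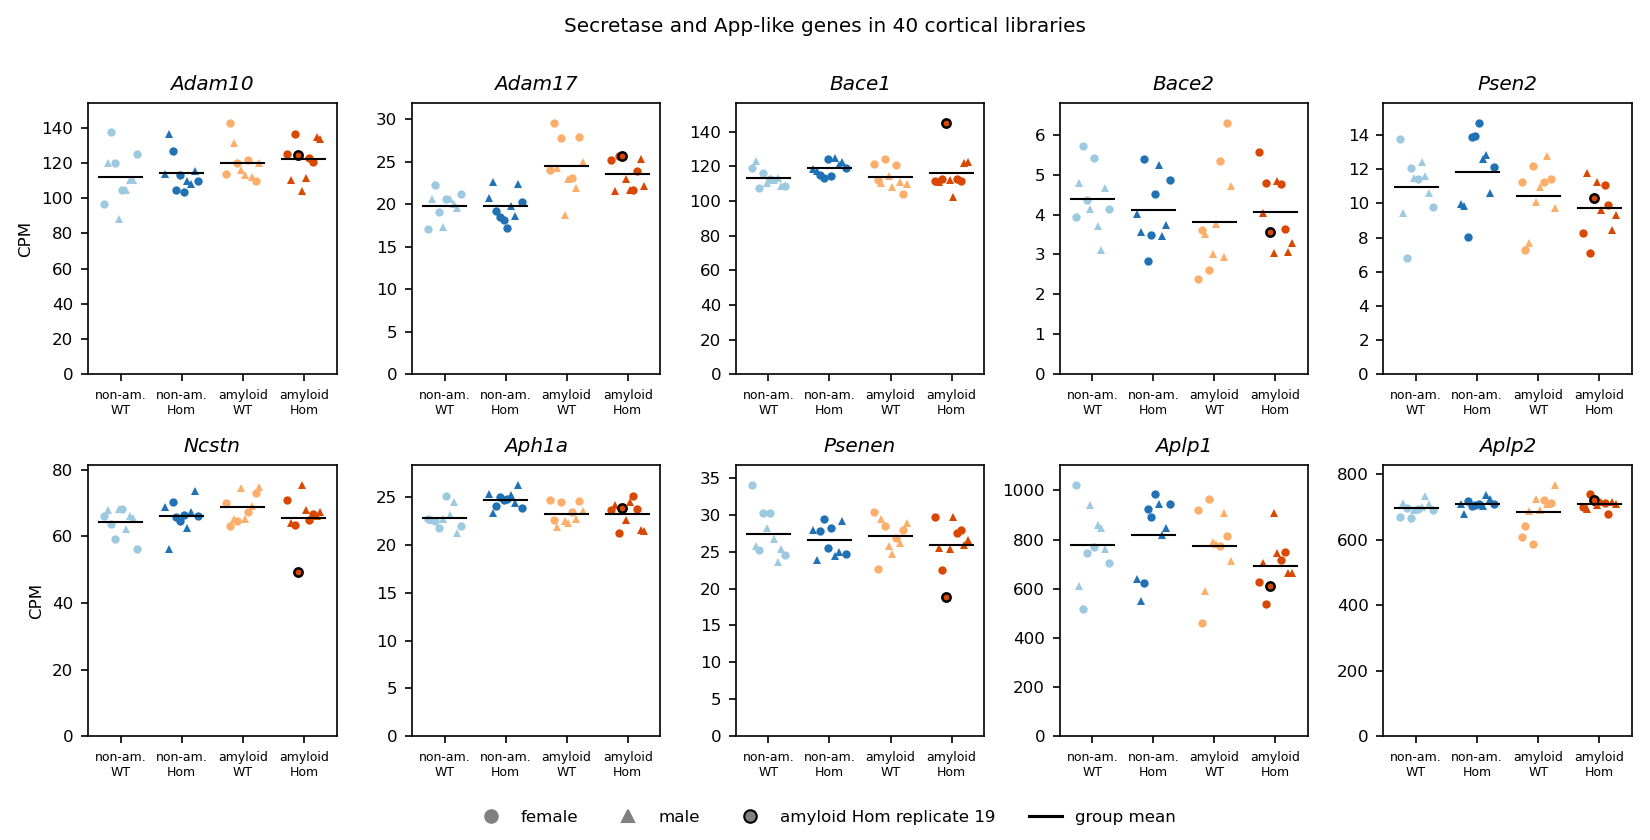
CPM of each of the 10 genes in 40 mice, 1 panel per gene with the vertical axis from 0, by group (circles females, triangles males, black line the group mean, black outline amyloid Hom replicate 19). *Adam17* is the gene that edgeR called higher in the amyloid groups. Replicate 19 is the highest *Bace1* value at 145 CPM and the lowest *Ncstn* value at 49.4 CPM of its group.

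**Figure D3:**
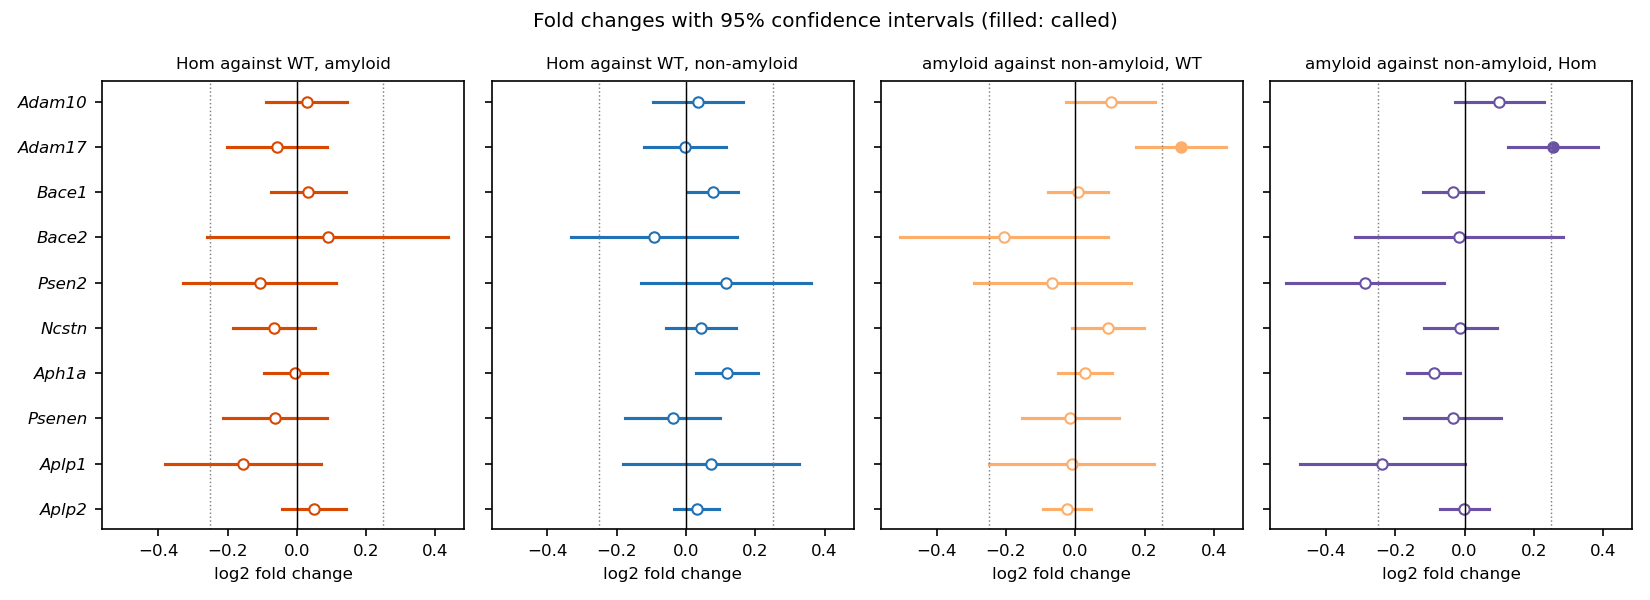
Log2 fold change of the 10 genes with 95% confidence intervals from edgeR in 4 comparisons, with dotted lines at ±0.25 and filled points for called genes. *Adam17* is called in both comparisons of the cohorts (0.31 in WT and 0.26 in Hom), no gene is called between Hom and WT, and *Bace2*, *Aplp1* and *Psen2* have the widest intervals.

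Between the cohorts edgeR called 1 of the 10 genes, *Adam17*, in both genotypes, which is near the share of all genes given below. *Adam17* (chromosome 12, 21323509 to 21373632, minus strand, mm10) encodes the sheddase of TNF and of many receptors, and its level was 17.1, 20.3 and 22.3 CPM (lowest, median, highest) in non-amyloid WT mice and 18.7, 24.1 and 29.5 CPM in amyloid WT mice. In Hom mice it was 17.2, 19.5 and 22.7 CPM without amyloid and 21.6, 23.5 and 25.7 CPM with it. In WT, 8 of 10 amyloid mice lay above every non-amyloid mouse, and in Hom 6 of 10 did. For such counts of mice, here and for the other genes below, the share of all genes was not counted. The fold change was 1.24 in WT (95% confidence interval 1.13 to 1.35, log2 0.31 ± 0.064 SE, adjusted p = 0.000695, edgeR) and 1.19 in Hom (1.09 to 1.31, log2 0.26 ± 0.064 SE, adjusted p = 0.00813, edgeR). *Adam17* was the only 1 of the 10 genes called in each comparison by edgeR, where 7.95% of all genes were called in WT (6.62% higher and 1.33% lower in amyloid mice) and 6.56% in Hom (5.71% higher and 0.856% lower). The 2 comparisons use different mice.

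The call in Hom mice lay close to the fold threshold. Without replicate 19 the log2 fold change in Hom was 0.24 with an adjusted p of 0.0206 in edgeR. With all 40 libraries it was likewise 0.24 by DESeq2 and limma-voom, with adjusted p values of 0.00548 and 0.00524. In each case it passed the p threshold and missed the fold threshold. The WT value stayed called by edgeR without replicate 19, and by DESeq2 and limma-voom with all 40 libraries. Each of the 40 libraries was then left out of the edgeR fit in turn, an alternative added after the values were seen. In WT mice the log2 fold change of *Adam17* ran from 0.26 to 0.34 and was called in all 40 fits. In Hom mice it ran from 0.24 to 0.28 with adjusted p values of 0.00357 to 0.0207, and was called in 31 of the 40 fits. It fell under the fold threshold without non-amyloid Hom replicate 11, 14, 20 or 23, without amyloid Hom replicate 3, 16, 19 or 39, and without amyloid WT replicate 32. Between the cohorts the summed microglial markers rose as *Adam17* did, all 8 of them detected. Their sum ranged from 314 to 398 CPM in non-amyloid WT, 340 to 383 CPM in non-amyloid Hom, 565 to 1334 CPM in amyloid WT and 466.3 to 795.4 CPM in amyloid Hom mice. Within the amyloid cohort the median sum was 875.5 CPM in WT and 613.6 CPM in Hom mice. The medians of *Adam17* there were 24.1 and 23.5 CPM. The sum of 6 astrocyte markers moved as well, with medians of 4138 and 4181 CPM in non-amyloid WT and Hom mice and 5479 and 5166 CPM in amyloid WT and Hom mice. Of these 6 markers, 2 were called higher and 4 not called in each comparison of the cohorts. Of the 8 microglial markers 8 were called higher in WT and 7 in Hom mice. Over all genes 6.62% and 5.71% were called higher by edgeR. The part of these cells in the *Adam17* value was not tested, and in bulk tissue a change in the share of cells of a type and a change in RNA per cell cannot be told apart.

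The difference was larger in the values of females than of males. This split was chosen after the values were seen. In females *Adam17* had 17.1 to 22.3 CPM in non-amyloid WT and 23.1 to 29.5 CPM in amyloid WT mice (5 mice each). In Hom females it had 17.2 to 20.2 CPM without amyloid and 21.7 to 25.7 CPM with it, the highest in replicate 19. These ranges do not overlap between the cohorts, and the share of all genes of which that is true was not counted. In males the cohorts overlapped, with 17.3 to 20.7 CPM against 18.7 to 24.9 CPM in WT and 18.6 to 22.7 CPM against 21.6 to 25.3 CPM in Hom mice. Fitted in females alone, the log2 fold change was 0.40 in WT (adjusted p = 0.00444, edgeR) and 0.39 in Hom (adjusted p = 0.0134, edgeR). In males alone it was 0.18 (adjusted p = 0.291, edgeR) and 0.11 (adjusted p = 0.739, edgeR). Whether the cohort difference itself differs between the sexes was not tested.

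**Figure D4:**
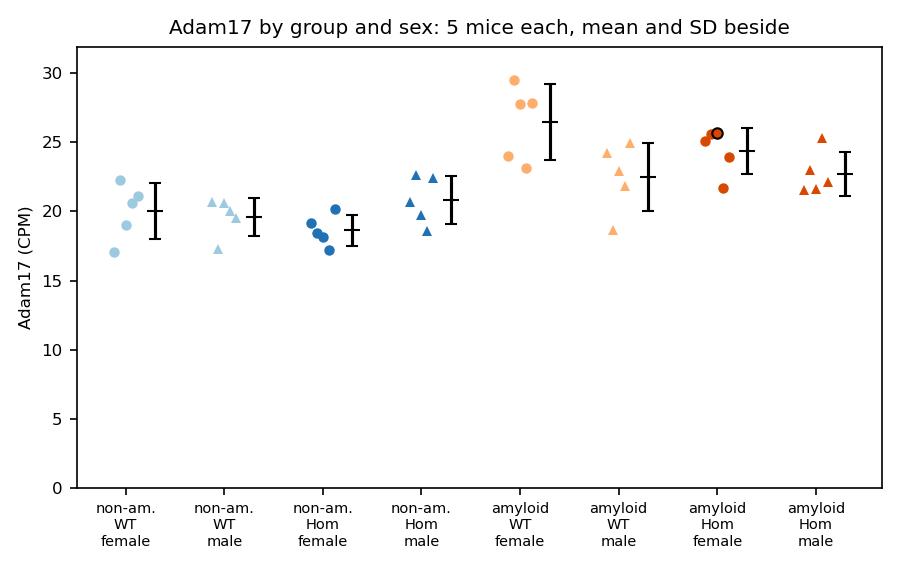
*Adam17* CPM by group and sex, 5 mice in each column (circles females, triangles males, black outline amyloid Hom replicate 19), with the mean and SD beside them and the axis from 0. Amyloid WT females average 26.5 CPM and non-amyloid WT females 20.0 CPM. Amyloid WT males average 22.5 CPM and non-amyloid WT males 19.6 CPM.

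*Adam17* shares 311 of its 7154 exonic bases with *Iah1* on the opposite strand. Between Hom and WT mice *Adam17* was not called in either cohort. The log2 fold change was -0.06 in the amyloid cohort (95% confidence interval -0.20 to 0.09) and -0.003 in the non-amyloid cohort (-0.12 to 0.12). *Adam10* (chromosome 9, 70678997 to 70780229, plus strand), the main α-secretase of neurons, was likewise not called in any comparison. Its level was 88.1, 110 and 138 CPM in non-amyloid WT, 104, 112 and 136 CPM in non-amyloid Hom, 110, 118 and 143 CPM in amyloid WT and 104, 124 and 137 CPM in amyloid Hom mice, and all 4 groups overlapped. Its log2 fold change between the cohorts was 0.10 ± 0.064 (SE) in WT and 0.10 ± 0.064 in Hom mice, with adjusted p values of 0.384 and 0.342 in edgeR. Between Hom and WT it was 0.03 in the amyloid cohort (-0.09 to 0.15) and 0.04 in the non-amyloid cohort (-0.10 to 0.17).

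Between the cohorts edgeR called *Adam17* and did not call *Adam10*, and whether the genes differ from each other was not tested. The promoters of these α-secretase genes are shown as a description, and their part in the values was not tested. They are the 250 bases before the annotated start in RefSeq (GRCm38.p6), at chr9:70678732-70678981 on the plus strand for *Adam10* and chr12:21373633-21373882 on the minus strand for *Adam17*, with capitals marking the GC box GGGCGG, the box of letters CCAAT and the TATA box TATAAA on either strand.
Adam10: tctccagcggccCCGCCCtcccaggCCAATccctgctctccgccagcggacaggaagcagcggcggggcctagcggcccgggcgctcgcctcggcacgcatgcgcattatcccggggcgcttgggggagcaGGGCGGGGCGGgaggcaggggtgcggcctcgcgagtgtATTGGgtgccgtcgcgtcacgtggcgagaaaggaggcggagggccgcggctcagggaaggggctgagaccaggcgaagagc
Adam17: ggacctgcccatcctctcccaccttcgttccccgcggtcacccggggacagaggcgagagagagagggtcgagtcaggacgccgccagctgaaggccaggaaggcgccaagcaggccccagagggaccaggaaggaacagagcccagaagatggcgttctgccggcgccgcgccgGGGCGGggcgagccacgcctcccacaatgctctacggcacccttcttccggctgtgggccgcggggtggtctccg
The *Adam10* window is 74.0% GC with 29 CpG, 3 copies of GGGCGG, 2 of which overlap, and 2 of CCAAT. The *Adam17* window is 70.4% GC with 23 CpG and 1 copy of GGGCGG. Neither holds TATAAA. Of 32851 promoters of the same length, 32.7% held GGGCGG, 33.8% CCAAT and 12.4% TATAAA, and their median GC was 52.4%. Promoters of 8 of the 10 genes were found in the RefSeq table, and *Bace1* and *Bace2* were not matched.

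*Bace1*, the enzyme that starts amyloid-β production, was among the members with the least spread within groups. *Bace1* (chromosome 9, 45838580 to 45864399, plus strand) had 107, 112 and 123 CPM in non-amyloid WT, 113, 119 and 125 CPM in non-amyloid Hom, 104, 111 and 124 CPM in amyloid WT and 102, 112 and 145 CPM in amyloid Hom mice. In the non-amyloid cohort all 10 Hom mice were above the WT median and 2 were above every WT mouse, and the log2 fold change was 0.078 (95% confidence interval 0.0044 to 0.15) with an unadjusted p of 0.0387 and an adjusted p of 0.965 in edgeR. In the amyloid cohort it was 0.033 (-0.07 to 0.14), and -0.002 without replicate 19, whose 145 CPM was the highest of all 40. Between the cohorts the log2 fold change was 0.0072 in WT (-0.08 to 0.09) and -0.03 in Hom mice (-0.12 to 0.05), and both intervals lie within the call threshold. Without replicate 19 the value in Hom mice was -0.07. Of the 10 amyloid Hom mice, 7 lay below every non-amyloid Hom mouse and 1, replicate 19, lay above every one. *Bace1* shares 975 of its 6348 exonic bases with *Rnf214* on the opposite strand. The strand setting is not stated, and how far the reads of these genes were kept apart there was not tested.

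*Bace2*, a paralog with a different cleavage preference in APP, was barely expressed in cortex. *Bace2* (chromosome 16, 97356728 to 97439012, plus strand) had 3.12, 4.26 and 5.72 CPM in non-amyloid WT, 2.84, 3.87 and 5.38 CPM in non-amyloid Hom, 2.39, 3.56 and 6.30 CPM in amyloid WT and 3.04, 3.83 and 5.58 CPM in amyloid Hom mice. The groups overlapped throughout, and amyloid WT mice spread the most. Its log2 fold change between the cohorts was -0.20 ± 0.15 (SE) in WT and -0.02 ± 0.15 in Hom mice (adjusted p = 0.484 and 0.958, edgeR). For this gene the 95% confidence intervals were wide, from -0.50 to 0.095 in WT and from -0.32 to 0.28 in Hom, so that changes past the call threshold lie within them.

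The γ-secretase subunits were not called in any comparison by edgeR. *Psen2* (chromosome 1, 180227004 to 180263438, minus strand) had 6.81, 11.5 and 13.8 CPM in non-amyloid WT, 8.05, 12.3 and 14.7 CPM in non-amyloid Hom, 7.24, 11.1 and 12.8 CPM in amyloid WT and 7.10, 9.76 and 11.8 CPM in amyloid Hom mice. None of the 10 amyloid Hom mice was above the non-amyloid Hom median, and the ranges overlapped. The log2 fold change between the cohorts was -0.29 ± 0.11 (SE, adjusted p = 0.114, edgeR) in Hom mice and -0.07 ± 0.11 (adjusted p = 0.825, edgeR) in WT mice. Limma-voom gave the same -0.29 in Hom mice with an adjusted p of 0.0466, so that it called *Psen2* there and not *Adam17*. Without non-amyloid Hom replicate 6 edgeR also called it, with -0.34 and an adjusted p of 0.0488. Between Hom and WT, *Psen2* had a log2 fold change of -0.11 (-0.33 to 0.11) in the amyloid cohort and 0.12 (-0.13 to 0.36) in the non-amyloid cohort.

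*Ncstn* (chromosome 1, 172066013 to 172082795, minus strand), the substrate-receptor subunit, had a median of 65.7, 66.1, 68.3 and 66.4 CPM in non-amyloid WT, non-amyloid Hom, amyloid WT and amyloid Hom mice. The lowest value of all was 49.4 CPM in replicate 19, and the other 39 mice lay between 56.2 and 75.4 CPM. Its log2 fold change between Hom and WT in the amyloid cohort was -0.07 (95% confidence interval -0.19 to 0.05), and -0.02 without that library. It shares 195 of 3975 exonic bases with *Copa* on the opposite strand.

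*Aph1a* (chromosome 3, 95893969 to 95898288, plus strand), a scaffold subunit of the complex, had the tightest values of the subunits. It was 21.3, 22.6 and 25.1 CPM in non-amyloid WT, 23.3, 24.7 and 26.3 CPM in non-amyloid Hom, 21.8, 23.1 and 24.7 CPM in amyloid WT and 21.3, 23.7 and 25.2 CPM in amyloid Hom mice. In the non-amyloid cohort all 10 Hom mice were above the WT median, with a log2 fold change of 0.12 ± 0.043 (SE), an unadjusted p of 0.0128 and an adjusted p of 0.965 in edgeR. In the amyloid cohort the difference was -0.004 ± 0.043. Its interaction of genotype and cohort was -0.12 ± 0.054, with an unadjusted p of 0.0356 and an adjusted p of 0.456 in edgeR. The interaction thus did not pass the correction. Between the cohorts *Aph1a* had -0.09 ± 0.038 in Hom mice, with an unadjusted p of 0.0249 and an adjusted p of 0.153 in edgeR. There 4 of 10 amyloid Hom mice lay below every non-amyloid Hom mouse. In WT mice the value was 0.03 ± 0.038 (adjusted p = 0.763, edgeR). *Psenen* (chromosome 7, 30561868 to 30563184, minus strand), which activates the complex, had a median of 26.2 to 27.4 CPM in the 4 groups, and its log2 fold changes lay between -0.06 and -0.01 in the 4 comparisons. Its lowest value was 18.8 CPM in replicate 19. Without that library its log2 fold change was -0.015 between genotypes in the amyloid cohort and 0.0085 between the cohorts in Hom mice, against -0.06 and -0.03 with it. *Aph1a* shares 445 of 3450 exonic bases with *Car14* and *Psenen* 119 of 1275 with *U2af1l4*, each on the opposite strand.

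The APP-like genes differed more in their spread than in their means. *Aplp1* (chromosome 7, 30434981 to 30445582, minus strand), which is expressed mainly in neurons, had 516, 765 and 1022 CPM in non-amyloid WT, 551, 870 and 984 CPM in non-amyloid Hom, 459, 786 and 964 CPM in amyloid WT and 540, 684 and 907 CPM in amyloid Hom mice. Only 1 of 10 amyloid Hom mice was above the amyloid WT median, and the log2 fold change between them was -0.16 (95% confidence interval -0.38 to 0.07) with an adjusted p of 0.647 in edgeR. Between the cohorts it was -0.24 ± 0.12 (SE, adjusted p = 0.222, edgeR) in Hom and -0.01 ± 0.12 (adjusted p = 0.98, edgeR) in WT mice. *Aplp2* (chromosome 9, 31149557 to 31211815, minus strand), which is expressed in most tissues, had 667, 695 and 734 CPM in non-amyloid WT, 680, 709 and 738 CPM in non-amyloid Hom and 680, 710 and 741 CPM in amyloid Hom mice. Its coefficient of variation was 2.80%, 2.17% and 2.32% in those groups and 8.21% in amyloid WT mice, where the values ran from 588 to 767 CPM. All of its log2 fold changes in the 4 comparisons lay between -0.02 and 0.05, with 95% confidence intervals of -0.09 to 0.05 between the cohorts in WT and -0.04 to 0.14 between genotypes in the amyloid cohort.

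The interaction of genotype and cohort was called by edgeR, DESeq2 and limma-voom for 0 of the 10 genes, and edgeR called 0% of all genes. An unadjusted p under 0.05 was found for 1 of the 10 by edgeR and by DESeq2 and for 0 by limma-voom, and for 10.3% of all genes by edgeR. Females and males, compared over the 4 groups, differed in 0 of the 10 genes by each of the 3 tools, against 0.358% of all genes by edgeR. At an unadjusted p under 0.05 the counts were 0 in edgeR, 1 in DESeq2 and 1 in limma-voom, with 8.74% of all genes in edgeR. The largest difference was in *Bace2*, with a log2 fold change of 0.19 (95% confidence interval -0.02 to 0.39) in females against males.

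The other genes of APP processing were read in the same fits. A list of 35 such genes was used, of which 34 are listed in the counts and 33 were tested. Between Hom and WT none of the 33 was called in either cohort, and their median log2 fold change was -0.06 in the amyloid and 0.046 in the non-amyloid cohort. In amyloid WT against non-amyloid WT mice 5 were called higher and 0 lower, with a median of 0.054, and in Hom mice 1 was called higher and 0 lower, with a median of 0.023. Over all tested genes 6.62% were called higher and 1.33% lower in WT, and 5.71% higher and 0.856% lower in Hom mice. The medians of all tested genes were 0.00234 and 0.0274.

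The called genes touched several steps. *App* itself rose by a log2 fold change of 0.27 ± 0.049 (SE, adjusted p = 9.41e-05, edgeR) in WT mice, from a median of 1415 to 1749 CPM. In Hom mice its median was 1489 CPM without and 1656 CPM with amyloid, and the log2 fold change of 0.15 ± 0.049 was not called (adjusted p = 0.0504, edgeR). *Thy1*, whose promoter drives the transgene, had medians of 642 CPM in non-amyloid WT and 642 CPM in non-amyloid Hom mice. Its medians were 1876 CPM in amyloid WT and 1535 CPM in amyloid Hom mice. Whether reads of the transgenes were counted on *App* or *Thy1* was not tested. *Rhbdf2*, a partner that carries ADAM17 through its maturation, rose by 0.90 ± 0.20 (adjusted p = 0.000975, edgeR) in WT mice, and in Hom mice its log2 fold change was 0.34 ± 0.19 (adjusted p = 0.293, edgeR). *Timp1*, an inhibitor of metalloproteases, rose by 2.14 ± 0.35 (adjusted p = 1.49e-05, edgeR), and *Gsap*, named for its reported activation of γ-secretase, by 0.47 ± 0.099 (adjusted p = 0.000573, edgeR) in WT mice. In Hom mice *Timp1* had 0.73 ± 0.36 and *Gsap* 0.28 ± 0.099, with adjusted p values of 0.212 and 0.0801 in edgeR. The interaction of genotype and cohort was called by edgeR for 0 of the 33 genes, so these differences between WT and Hom mice did not pass a test of their own. *Lgmn*, a lysosomal protease able to cut APP, rose in both genotypes, by 0.47 ± 0.062 (adjusted p = 1.74e-07, edgeR) in WT and 0.26 ± 0.062 (adjusted p = 0.00462, edgeR) in Hom mice. The summed microglial markers given above moved in the same direction as these genes, and their part in the values was not tested.

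Among 4 amyloid-β degrading enzymes 1 was called in both comparisons of the cohorts, where 7.95% of all genes were called in WT and 6.56% in Hom mice. *Mme*, which encodes neprilysin, was lower in amyloid mice by a log2 fold change of -1.09 ± 0.15 (SE, adjusted p = 3.92e-07, edgeR) in WT and -0.69 ± 0.15 (adjusted p = 0.00153, edgeR) in Hom mice. None of 9 *Bace1* substrates was called in any comparison. Of 8 substrates of *Adam10* and *Adam17*, 3 were called higher in amyloid WT mice (6.62% of all genes were), namely *Trem2* (2.54 ± 0.18, adjusted p = 2.37e-14, edgeR), *Il6ra* (0.74 ± 0.12, adjusted p = 4.56e-06, edgeR) and *Tnf* (1.62 ± 0.48, adjusted p = 0.0239, edgeR). In amyloid Hom mice *Trem2* was the 1 called (1.70 ± 0.18, adjusted p = 2.67e-09, edgeR), where 5.71% of all genes were called higher, and *Il6ra* and *Tnf* had 0.23 ± 0.11 and -0.33 ± 0.50. None of the genes of these 3 lists was called between Hom and WT in either cohort. In the amyloid cohort the log2 fold change of *Trem2* in Hom against WT mice was -0.87 ± 0.21 (SE), with an unadjusted p of 0.000373 and an adjusted p of 0.0763 in edgeR. *Tnf* had -1.38 ± 0.47 and *Il6ra* -0.36 ± 0.13 there, with adjusted p values of 0.226 and 0.274 in edgeR. Without replicate 19 these values were -0.90, -1.27 and -0.35, and none was called. The study did report *Trem2* among the genes lowered in Hom mice of this cohort, and found it lower by qPCR as well.

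Within the groups 4 of the 10 genes varied together along an axis of base composition. For each library the slope of log2 CPM on transcript GC was computed over 21000 tested genes, relative to the mean of its group. These slopes ran from -0.395 to 0.277 log2 units per 10% GC, and libraries of both signs occurred in every group. Taken relative to the mean of all libraries instead, the slopes averaged 0.0015 in non-amyloid WT, 0.068 in non-amyloid Hom, 0.0023 in amyloid WT and -0.07 in amyloid Hom mice. *Aplp1*, whose longest transcript is 59.4% GC, correlated with the within-group slope at r = 0.97 over the 40 libraries after centring within groups. *Psen2* (55.1% GC) did so at r = 0.88, *Adam10* (42.1% GC) at r = -0.89 and *Adam17* (45.1% GC) at r = -0.54. The other 6 genes had r between -0.33 and 0.40.

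**Figure D5:**
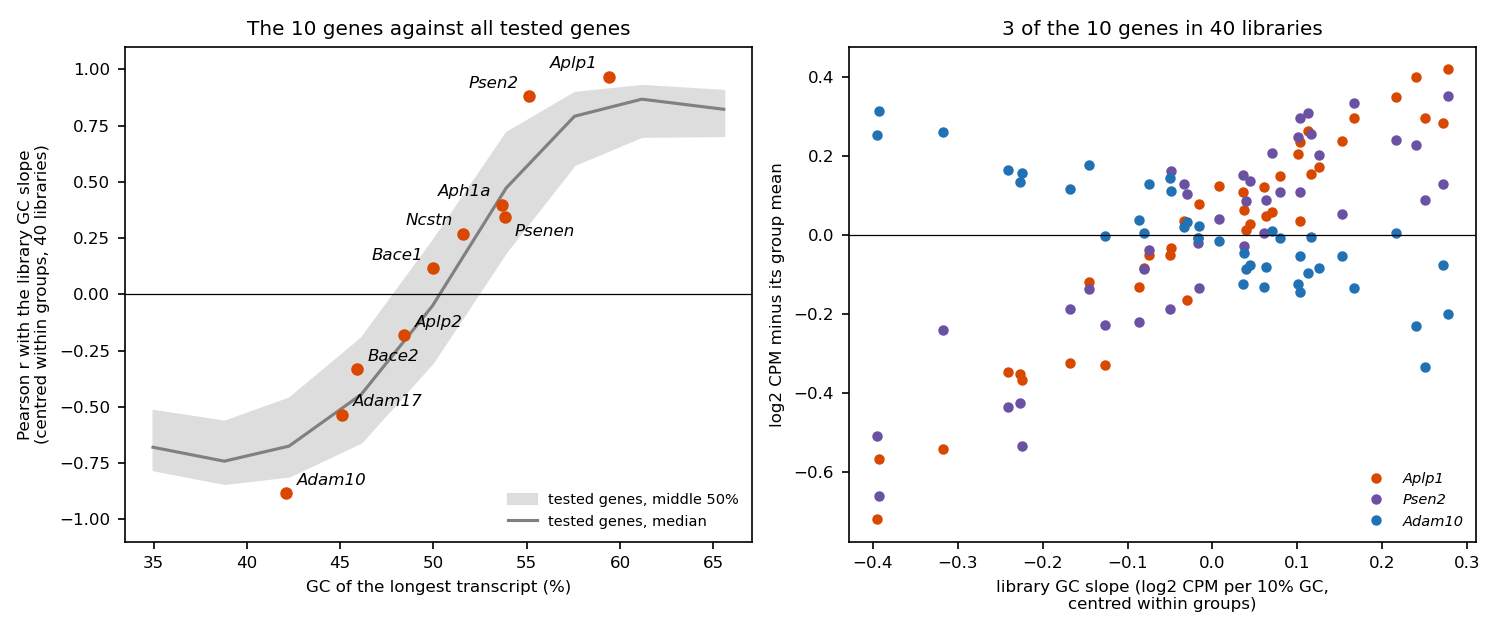
Left, transcript GC of the 10 genes (orange) against the Pearson correlation of their log2 CPM with the library GC slope, over 40 libraries centred within groups, with the median and middle 50% of tested genes in bins of GC in grey. Right, log2 CPM minus the group mean of 3 genes against the library GC slope in 40 libraries: *Aplp1* and *Psen2* rise with the slope and *Adam10* falls.

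The same axis is seen in the pairs. *Aplp1* and *Psen2* correlated at r = 0.87, *Aplp1* and *Adam10* at r = -0.84, and *Psen2* and *Adam10* at r = -0.77, while *Adam10* and *Adam17* correlated at r = 0.57 (40 libraries, centred within groups). Tested genes as a whole followed their GC, with a median r of -0.68 in a bin centred at 42.3% and 0.79 in a bin centred at 57.6%. Of the members *Aplp1*, *Psen2*, *Adam10* and *Ncstn* lay outside the middle 50% of their bins and the other 6 within it. The within-group SD of log2 CPM was 0.282 for *Aplp1*, at or above that of 97.6% of tested genes of like level. For *Aplp2* and *Aph1a* it was 0.0680 and 0.0699, at or above that of only 0.565% and 0.407%. The slope relative to the mean of all libraries, which differs between the groups, was then used as a covariate. This alternative was added after these values were seen. With it the cohort difference in Hom mice was -0.10 for *Psen2* (adjusted p = 0.378, edgeR) and -0.006 for *Aplp1* (adjusted p = 0.948, edgeR), against -0.29 and -0.24 without it. *Adam10* had 0.11 in WT (adjusted p = 0.0116, edgeR), under the fold threshold, and 0.00057 in Hom mice (adjusted p = 0.995, edgeR). The log2 fold change of *Adam17* between the cohorts was 0.31 in WT (adjusted p = 4.15e-05, edgeR) and 0.20 in Hom mice (adjusted p = 0.022, edgeR), and the latter missed the fold threshold.

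The genes most like each member, by correlation over the 40 libraries centred within groups among 15197 genes, differed between members. *Aplp1* had 788 genes at r over 0.9, led by *Mlf2*, *Rnf208* and *Apbb1* (r = 0.98 each). *Adam10* had 51, led by *Uhmk1*, *Kpna4* and *Ireb2* (r = 0.94), and *Psen2* had 12, led by *Evl*, *Tubb3* and *Diras1* (r from 0.91 to 0.92). The other 7 had none. *Adam17* was most like *Pag1* (r = 0.85), *Pde3b* (0.82) and *Tgfbr1* (0.81), *Ncstn* like *Exosc10*, *Copg1* and *Btrc* (0.81), and *Psenen* like *Rpl34-ps1* (0.85), *Rpl34* and *Tmem147* (0.82), of which the first resembles *Rpl34* and may share its reads. *Aplp2* was most like *Epb4.1l3* (0.79), *Dusp3* (0.78) and *Pex5l* (0.75), *Bace2* like *Hunk* (0.75), *Heg1* (0.74) and *Fbxl4* (0.72), and *Aph1a* like *Eml3* (0.71), *Stx2* (0.68) and *Gpr153* (0.66). For *Bace1* the list was *Syn3* (0.75), *Tstd2* and *Fchsd1* (0.73), and without replicate 19 these fell to 0.50, 0.47 and 0.45.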

How the data were processed

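Cortical poly-A RNA of 40 mice was sequenced on 1 flow cell. The deposited values are raw counts per gene, made by the authors with no normalization. The study's methods name TopHat, Bowtie and featureCounts within MAP-RSeq, whereas the submitters' processing notes list STAR 2.5.2b, featureCounts 1.5.1, edgeR and mm10. The strand setting is not given in the sources used here. The study left out 1 amyloid Hom female for a low share of reads on genes and for its strandness, and all 10 were kept here. Replicate 19 stood apart in total counts and in counts on opposite-strand genes, and whether it is that library is not given in the sources used here. Of 43346 genes listed, 9666 had no count. The deposited gene length, which the authors supplied beside the counts, was used for levels per kb.

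A gene was tested when 4 or more of the 40 libraries held 10 or more counts of it (21253 genes). Counts were normalized by TMM and tested by edgeR 4.0.16 (quasi-likelihood, R 4.3.3), with DESeq2 1.42.0 and limma 3.58.1 (voom with quality weights) as alternatives. Genes were called at a Benjamini-Hochberg adjusted p under 0.05 over all tested genes and an absolute log2 fold change over 0.25. Hom was compared to WT within each cohort by the test and thresholds of the study's methods, with all 10 amyloid Hom mice kept. In the amyloid cohort this called 16 genes, fewer than the study reported, and the cause of that difference was not tested. The cohorts were compared, and the interaction tested, in 1 fit of 40 libraries with 4 groups, and females were compared to males with group as a covariate. CPM is scaled to the TMM-adjusted library size, and correlations used log2 CPM with a prior count of 2. Transcript GC was that of the longest GENCODE vM21 transcript and was found for 98.81% of tested genes. Sequences were aligned and read with Biopython 1.88 (Python 3.11.15), and figures drawn with matplotlib 3.10.9. The script was tested on simulated data.

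Total counts ran from 41646271 to 105903846, and counting error is smaller than the spread between mice for these genes. The lowest chi-square per degree of freedom over 180 pairs of libraries of a group was 12.7, so no pair of libraries agreed within sampling noise. The mice of a group are separate animals. Named genes are the 10 members, *App*, *Thy1*, at most 5 called genes per comparison from the other lists and, for each member, the 3 genes most like it. The members and the lists were chosen with earlier results of these data known. Marker sums used 8 neuronal, 8 microglial and 6 astrocyte genes, and oligodendrocyte, OPC, endothelial, mural, choroid plexus, fibroblast and erythroid lists were also summed.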

Additional observations from a re-analysis of the deposited data

Results flagged for a closer look

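The values of the 10 genes in the 4 groups were examined for a single mouse far from the others by Dixon's test, which chance alone passes in about 1 of 20 groups. Of 40 groups of values, 2 held such a mouse, and both were amyloid Hom replicate 19. Its *Bace1* level was 145 CPM, where the nearest mouse of its group had 122.7 CPM. Its *Ncstn* level was 49.36 CPM, where the nearest had 63.34 CPM. This library also had the lowest total count and the largest share of counts on genes under an opposite-strand gene, and the part of either in these values was not tested.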

How the results depend on the processing

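Each log2 fold change and each count of called genes was recomputed under DESeq2, limma-voom, other normalizations, other filters, no fold threshold, sex as a covariate, single sexes, 1 fit of all libraries and each library left out (for females against males, replicate 19 only). The GC slope as a covariate, the single sexes for the cohort comparisons, the slope together with leaving out replicate 19, and each library other than replicate 19 left out of the cohort comparisons and the interaction were chosen after seeing the data. For Hom against WT in both cohorts, the interaction and females against males, 0 of the 10 genes were called under every alternative run, those with a library left out included. Amyloid against non-amyloid in WT mice gave 1 called gene (*Adam17*) except in males alone, with 0, and with a library left out the count was 1 each time. In Hom mice the 1 call became 0 under DESeq2, no filter, filterByExpr, the GC slope with and without replicate 19 and males alone, ran from 0 to 2 with a library left out (0 for the 9 libraries named with *Adam17*, 2 with *Psen2* called beside *Adam17* without non-amyloid Hom replicate 6), and under limma-voom the 1 gene was *Psen2* in place of *Adam17*. *Adam17* in Hom mice had a log2 fold change of 0.24 and an adjusted p of 0.0114 with no filter, 0.24 and 0.0108 with filterByExpr, and 0.18 and 0.0436 with the GC slope and without replicate 19, all edgeR. The cause of these changes was not tested beyond the narrow margin to the fold threshold.

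Values of uncalled genes that changed sign, with adjusted p values of 0.611 or more in all 19 cases, were these. With limma-voom *Aplp2* had -0.0062 between genotypes in the amyloid cohort, 0.024 between the cohorts in WT and -0.038 in the interaction. With the GC slope *Aplp1* had 0.0097 in the interaction. With the slope and without replicate 19, the values in Hom mice between the cohorts were -0.00051 (*Adam10*), 0.049 (*Ncstn*), 0.047 (*Psenen*) and 0.0063 (*Aplp1*), and *Aplp1* had 0.022 in the interaction. In males alone, Hom against WT gave 0.015 (*Adam17*) and -0.014 (*Aplp2*) in the amyloid cohort, and 0.079 (*Adam17*), -0.011 (*Ncstn*), -0.086 (*Aplp1*) and -0.0024 (*Aplp2*) in the non-amyloid cohort. In females alone *Adam10* had -0.056 there. Between the cohorts *Bace1* had 0.018 in Hom females and -0.054 in WT males, and *Aph1a* had -0.035 in WT males. A further 109 of the 2290 recomputed values changed sign by less than 1 SE, 71 of them with a library left out, with adjusted p values of 0.776 or more. Replicate numbers are not shared between groups. No paired analysis was possible because the numbers run from 1 to 40 over all mice. *Bace2* had the fewest counts, 152 to 538 a library.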

Other observations

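The summed levels of other cell type markers are given as medians over 10 mice in non-amyloid WT, non-amyloid Hom, amyloid WT and amyloid Hom mice. Oligodendrocyte markers had 4210, 4236, 4297 and 4520 CPM, and their precursors (OPC) had 146, 150, 171 and 163 CPM. Endothelial markers had 95.8, 105, 108 and 113 CPM, mural markers 135, 133, 126 and 130 CPM, and fibroblast markers 43.6, 35.7, 43.0 and 41.2 CPM. Erythroid markers had 9.11, 10.3, 7.36 and 8.15 CPM. Choroid plexus markers varied most between mice, from 5.69 to 659 CPM over the 40 mice, with medians of 10.4, 9.19, 15.7 and 22.1 CPM. In each list every marker was detected in at least 1 library.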
